A study of Mus musculus with 6 samples.

Results

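Spinal cord B and spinal cord A are clusters of neural cells that the authors named in wild-type (wt) mouse stembryos 120 h after aggregation. Cells annotated Spinal cord B were set against cells annotated Spinal cord A of the same library in 3 libraries, namely replicates 1 and 2 of whole stembryos and the posterior part of dissected stembryos. Together these held 1770 spinal cord B cells and 3449 spinal cord A cells, that is 5219 of the 15437 cells in the 3 libraries and of the 26968 cells in the 6 libraries of the series. Stembryos are aggregates of mouse embryonic stem (mES) cells that elongate into a trunk-like structure after a pulse of the Wnt agonist Chiron, and every group compared here had received it. Each library was made on the 10x platform from a pool of dissociated stembryos, and structures that had not elongated by 120 h had been discarded, so neither cluster describes an unselected culture. The labels do not say that the replicates were separate cultures, so p-values measure only the spread between these samples.

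In the embryo, the spinal cord grows from neuromesodermal progenitors (NMPs), bipotent cells of the tail bud that are kept in place by Wnt and fibroblast growth factor (FGF) signals. Cells that leave this zone shut down the tail bud genes, meet retinoic acid made by the neighbouring somites and turn on the transcription factors of neural progenitors. Hox genes, which lie in 4 clusters and are activated one after the other during axial growth, give such cells their position along the axis.

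Spinal cord B made up 287 of 528 spinal cord cells in whole replicate 1 (54.4%, exact 95% interval 50 to 58.7%), 540 of 851 in whole replicate 2 (63.5%, 60.1 to 66.7%) and 943 of 3840 in the posterior part (24.6%, 23.2 to 26.0%). These intervals cover counting error only. The cells were summed per library and cluster, which gave 5115769, 5590311 and 15093831 UMIs for spinal cord B and 3308438, 2620560 and 43321034 UMIs for spinal cord A in whole replicate 1, whole replicate 2 and the posterior part. All triplets of values below follow this order of libraries. Among the spinal cord B and A cells, no barcode occurred in more than 1 of the 3 libraries. The 3 libraries came from 3 different batches, and replicate 2 was made with another version of the 10x chemistry, so the posterior position of the dissected library and its batch cannot be told apart.

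Levels are counts scaled to the total of a summed library and corrected by trimmed-mean factors (CPM). Differences are log2 changes, spinal cord B over spinal cord A, ± SE from the quasi-likelihood test of edgeR with the library as a block. A gene was called at an adjusted p under 0.05. Of 11534 genes tested, 650 were higher in spinal cord B (5.64%) and 554 were lower (4.80%), so that 10.4% were called in either direction, and the median log2 change of all genes tested was -0.01. The 3 values of one cluster lay wholly above or below the 3 values of the other for 11.0% of the genes tested. The clusters had been formed from the expression of these same cells, so a p-value here measures how far a difference repeats over libraries and is no independent test that the clusters exist.

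The cluster names were checked against markers. Spinal cord markers summed to 1106, 1303 and 1081 CPM in spinal cord B, against 771, 834 and 784 CPM in spinal cord A, and of 12 tested, 10 were higher and 2 lower in spinal cord B. NMP markers summed to 132, 119 and 367 CPM in spinal cord B, against 594, 673 and 1017 CPM in spinal cord A, and 10 of 11 tested were lower. Both clusters thus carried neural genes, and cells named spinal cord A also carried NMP genes at a higher level than spinal cord B. Several neural markers had similar levels in spinal cord A and in a progenitor cluster of the same libraries, as given below. Markers of neural crest, endothelium and blood, and pluripotent cells were at or below 17.8 CPM in sum in every library of either cluster. Endoderm markers summed to 5.85, 9.16 and 17.3 CPM in spinal cord B, against 20.3, 20.7 and 27.1 CPM in spinal cord A, with Epcam the only 1 of 3 tested that was called. A longer list of endoderm genes, which also holds Apela and Trh, summed the other way, to 88.7, 109.7 and 141 CPM in spinal cord B, against 37.8, 39.5 and 53.2 CPM in spinal cord A, with these 2 of 5 tested higher and Epcam lower. The part of the presomitic, somite and endoderm genes of these cells in the other differences was not tested beyond the alternative given next.

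Somite markers moved with the cluster unevenly. They summed to 101, 144 and 57.8 CPM in spinal cord B, against 185, 113 and 37.1 CPM in spinal cord A, with 3 of 6 tested higher and 1 lower. In whole replicate 1, 35 of 241 spinal cord A cells (14.5%) held more somite than spinal cord marker UMIs, against 1 of 287 spinal cord B cells (0.348%). In whole replicate 2 the shares were 2.41% of spinal cord B and 5.47% of spinal cord A, and in the posterior part 0.212% and 0.863%. Without these cells, a choice made after seeing the data, 714 genes were higher and 635 lower, and of the genes called with all cells 644 and 542 were called again.

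**Figure D1:**
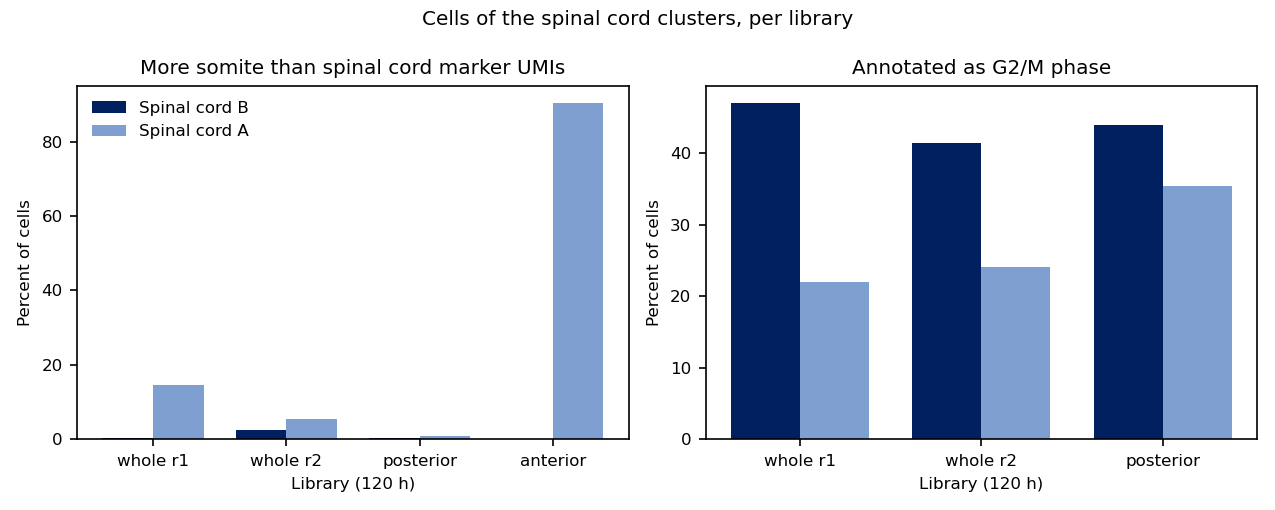
Left, percent of the cells of spinal cord B (dark) and spinal cord A (light) in each 120 h library with more somite than spinal cord marker UMIs, and right, percent annotated as G2/M by the authors in the 3 libraries compared. The share with more somite marker UMIs was highest in spinal cord A of the anterior part (90.5%), which was not used in the comparison, and the G2/M share was higher in spinal cord B in each of the 3 libraries.

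Several neural transcription factors were among the largest increases. Sox21, a SoxB2 factor of neural progenitors (chr14:118233232-118237030, mm10), had 56.6, 85.7 and 38.1 CPM in spinal cord B, against 0.626, 1.88 and 1.32 CPM in spinal cord A. Every spinal cord B value was far above every spinal cord A value, and the log2 change was 5.05 ± 0.16 (edgeR adjusted p = 1.56e-12). Pax6, a homeodomain factor of the neural tube that patterns its intermediate domains (chr2:105668900-105697364, mm10), had 50.4, 119 and 16.5 CPM in spinal cord B, against 4.69, 5.65 and 2.30 CPM in spinal cord A. Here too the groups did not overlap, and the log2 change was 3.31 ± 0.18 (edgeR adjusted p = 1.22e-09). The level of Pax6 in spinal cord B of the posterior part was the lowest of the 3, closer to the spinal cord A values than in the whole stembryos.

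Of 23 neural progenitor factors tested, 14 were higher and 5 lower in spinal cord B, with a median log2 change of 0.51 against -0.01 over all genes. The general neural factors of the SoxB1 group were present in both clusters and moderately higher in spinal cord B. Sox2 had 250.3, 300.5 and 293 CPM in spinal cord B, against 163, 199 and 214 CPM in spinal cord A, with log2 change 0.54 ± 0.06 (edgeR adjusted p = 1.41e-05). Sox1, which marks committed neural cells, had 37.4, 40.6 and 30.0 CPM in spinal cord B, against 8.76, 12.4 and 13.4 CPM in spinal cord A (log2 change 1.44 ± 0.14). Sox3 had a log2 change of 1.06 ± 0.09, and none of these 3 genes overlapped between clusters. The log2 changes of Sox1, Sox2 and Sox3 were smaller than those of Sox21 and Pax6. Since Sox21 and Pax6 had been picked for being among the largest increases, this order follows from the choice of genes. Nothing is concluded from it about general and more specific neural factors.

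The Iroquois and Dbx homeodomain factors, which divide the neural tube along its dorsoventral axis, were higher as well. Irx3 had 91.0, 145 and 105 CPM in spinal cord B, against 25.3, 37.6 and 35.5 CPM in spinal cord A (log2 change 1.71 ± 0.09, edgeR adjusted p = 7.58e-10). Its neighbour in the same gene cluster, Irx5, followed with 38.5, 56.1 and 39.1 CPM in spinal cord B and 8.44, 8.28 and 8.95 CPM in spinal cord A. Dbx2, a factor of the intermediate neural tube, was counted 53, 63 and 158 times in spinal cord B, against 0, 1 and 24 times in spinal cord A. In CPM these were 10.0, 10.49 and 11.1 in spinal cord B and 0, 0.376 and 0.587 in spinal cord A (log2 change 4.38 ± 0.29, edgeR adjusted p = 1.54e-08).

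The 5 neural progenitor factors that were lower in spinal cord B were Lix1, Zic2, Zic5, Gbx2 and Sp8. Lix1 had 2.08, 1.5 and 3.29 CPM in spinal cord B, against 7.19, 15.1 and 12.8 CPM in spinal cord A. Gbx2, a homeobox gene that is also active in the posterior embryo before neural identity is fixed, had 30.6, 27.3 and 51.3 CPM in spinal cord B, against 62.6, 65.5 and 71.6 CPM in spinal cord A (log2 change -0.80 ± 0.12). Zic2 was lower by a smaller amount, with a log2 change of -0.51 ± 0.11. For Hes5, a Notch target, the call at 0.30 ± 0.08 depended on single libraries, with an edgeR adjusted p of 0.0234 over all 3, 0.21 without whole replicate 2 and 0.106 without the posterior part.

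Among the 15 largest increases, several encode receptors and adhesion molecules. Ednrb, a receptor for endothelins, was counted 146, 342 and 156 times in spinal cord B, against 0, 0 and 28 times in spinal cord A (log2 change 4.69 ± 0.31, edgeR adjusted p = 1.56e-08). Nrcam, a cell adhesion molecule of the immunoglobulin family, had 32.8, 43.6 and 21.1 CPM in spinal cord B, against 2.81, 4.14 and 2.01 CPM in spinal cord A. Scube2, a secreted protein that helps release Hedgehog ligand from producing cells, had 34.3, 34.5 and 54.4 CPM in spinal cord B, against 3.44, 3.76 and 7.12 CPM in spinal cord A. It was one of the few in this set whose spinal cord B level was highest in the posterior part. Rfx4, a transcription factor needed for neural tube patterning, and Fam181b had log2 changes of 3.56 ± 0.17 and 3.74 ± 0.14.

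Apela and Trh are both also on the list of endoderm genes. Apela, which encodes a small secreted ligand of the apelin receptor, had 74.2, 88.2 and 75.5 CPM in spinal cord B, against 11.9, 16.2 and 17 CPM in spinal cord A. Trh, the precursor of thyrotropin-releasing hormone, had 8.12, 12.3 and 48.0 CPM in spinal cord B, against 5.00, 2.26 and 8.81 CPM in spinal cord A. Its groups overlapped, because the posterior spinal cord A value was above the spinal cord B value of whole replicate 1, although spinal cord B was higher within each library (log2 change 2.28 ± 0.18). Akap12, Fndc5 and Plxna2, the last a semaphorin co-receptor, completed the set with log2 changes between 2.16 and 2.26. Fgfr2 had a log2 change of 2.30 ± 0.15, but in the GENCODE annotation its gene model spans Nkx1-2 and Oat on the same strand, so how reads were divided between these genes is uncertain.

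**Figure D2:**
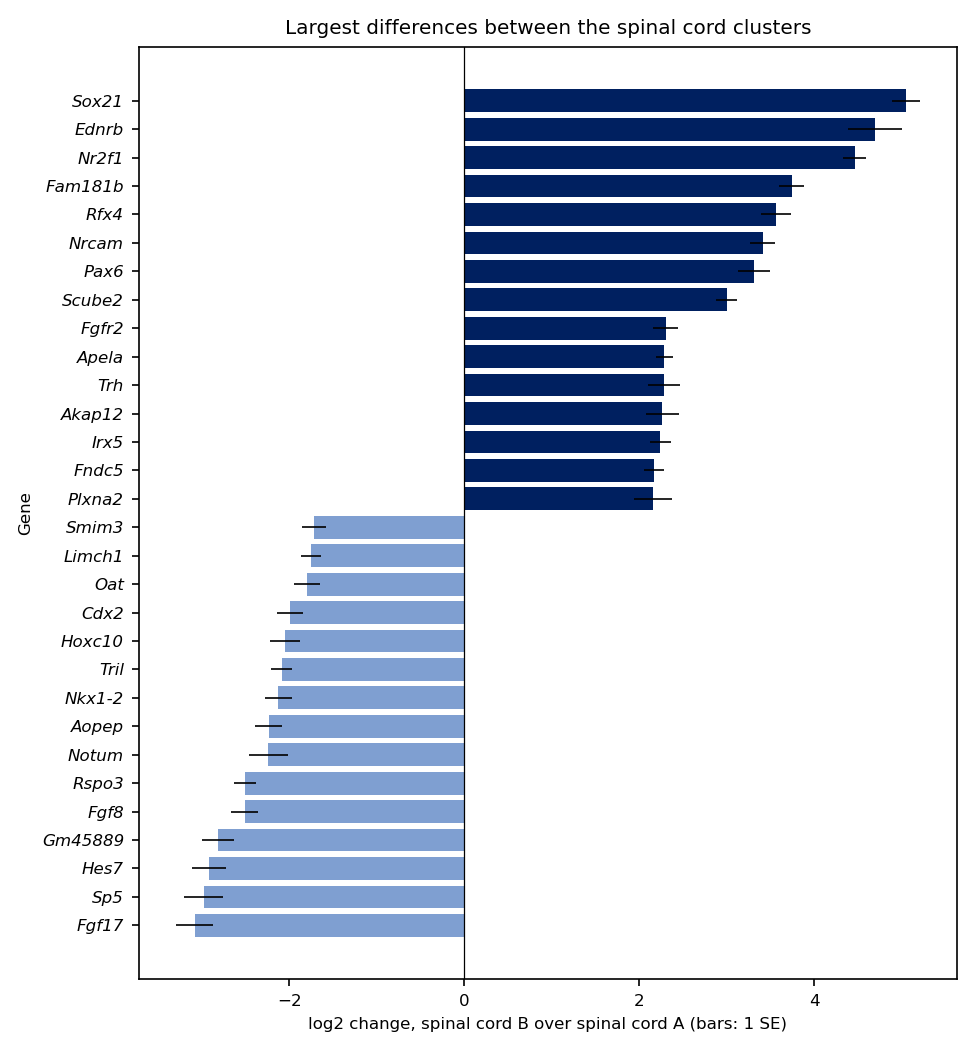
Log2 change of the 15 genes with the largest increase and the 15 with the largest decrease in spinal cord B over spinal cord A, among called genes with the same sign in all 3 libraries and a mean of at least 20 CPM in the higher cluster. Bars are edgeR estimates with 1 SE, which run from 5.05 for Sox21 at the top to -3.08 for Fgf17 at the bottom.

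The genes of the tail bud lay on the other side. Of 17 NMP and tail bud genes tested, 14 were lower in spinal cord B and 1 was higher, with a median log2 change of -1.46. Fgf17, a tail bud ligand of the FGF family (chr14:70636203-70642268, mm10), had 2.08, 1.83 and 12.5 CPM in spinal cord B, against 40.3, 47.8 and 73.9 CPM in spinal cord A (log2 change -3.08 ± 0.22, edgeR adjusted p = 2.63e-08). Fgf8, which maintains the progenitor zone (chr19:45736798-45742915, mm10), had 9.06, 15.3 and 34.2 CPM in spinal cord B, against 104, 104 and 143 CPM in spinal cord A (log2 change -2.51 ± 0.16, edgeR adjusted p = 7.94e-09). For both ligands the clusters did not overlap, and the posterior part had the highest value on either side.

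Nkx1-2, a homeobox gene of the stem zone beside the primitive streak (chr7:132594878-132599637, mm10), had 11.3, 12.8 and 40.1 CPM in spinal cord B, against 70.7, 94.1 and 126 CPM in spinal cord A (log2 change -2.12 ± 0.16, edgeR adjusted p = 4.9e-08). Since it lies within the gene model of Fgfr2, its count carries the same uncertainty. T, the T-box factor Brachyury of streak and notochord, had 7.93, 5.66 and 14.3 CPM in spinal cord B, against 17.8, 27.1 and 35.7 CPM in spinal cord A (log2 change -1.46 ± 0.15, edgeR adjusted p = 2.46e-06). The Cdx factors, which act upstream of trunk Hox genes, were all lower. Cdx2 (chr5:147300805-147307270, mm10) had 51.1, 31.5 and 144 CPM in spinal cord B, against 228, 215 and 402 CPM in spinal cord A, and the log2 changes of Cdx2, Cdx1 and Cdx4 were -1.99 ± 0.15, -1.54 ± 0.19 and -0.99 ± 0.12.

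Mnx1 and Evx1, homeobox genes of the tail end that are also known from spinal neurons, shared this direction. Evx1 had 1.70, 0.999 and 3.99 CPM in spinal cord B, against 5.94, 13.2 and 22.5 CPM in spinal cord A. Mnx1 had 3.96, 1.33 and 2.80 CPM in spinal cord B, against 10.6, 13.5 and 18.0 CPM in spinal cord A. The exception in the list was Hes3, a transcriptional repressor of neural stem cells, which had 50.8, 46.9 and 74.5 CPM in spinal cord B and 23.8, 20.3 and 26.9 CPM in spinal cord A (log2 change 1.34 ± 0.10, edgeR adjusted p = 3.7e-08).

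**Figure D3:**
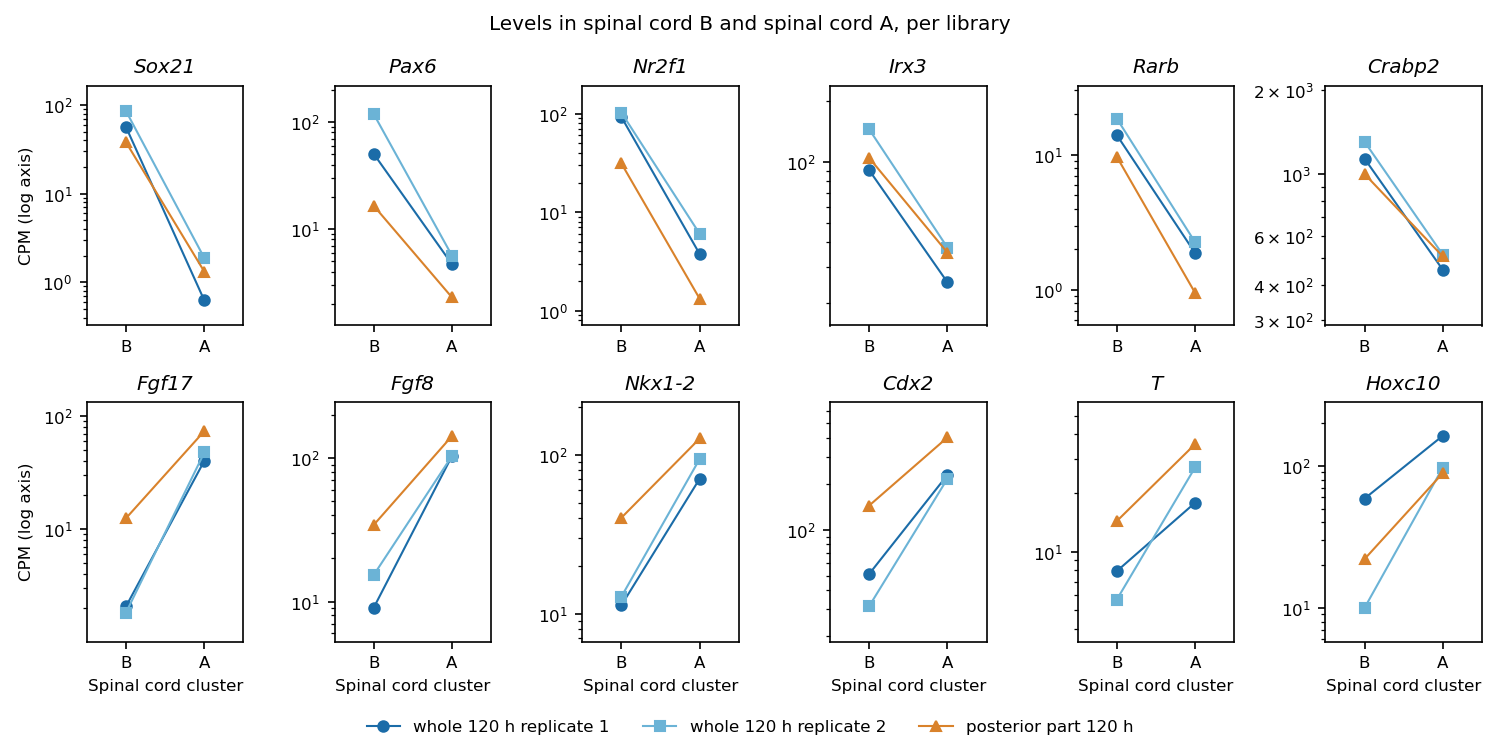
CPM on log axes of 6 genes higher (top row) and 6 lower (bottom row) in spinal cord B (left point) than in spinal cord A (right point), with 1 line per library. Within every library each of the top 6 genes is higher and each of the bottom 6 lower in spinal cord B, and the posterior line starts higher than both whole lines for Fgf17, Fgf8, Nkx1-2, Cdx2 and T.

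The genes with the largest differences were also compared between the posterior part and the whole stembryos. Of the 15 largest increases, 9 had their lowest spinal cord B value in the posterior part, and of the 15 largest decreases, 12 had their highest spinal cord B value there. Over all 11534 genes tested, the lowest spinal cord B value was in the posterior part for 39.7% and the highest for 38.8%. In spinal cord A the same counts were 4 of 15 and 11 of 15, against 33.8% and 38.2% of all genes. These genes were picked by their difference between the clusters, so the counts are a description. Nr2f1, for example, a nuclear receptor of the COUP-TF group (chr13:78188973-78199757, mm10), had 92.3, 102 and 31.2 CPM in spinal cord B, against 3.75, 6.02 and 1.32 CPM in spinal cord A (log2 change 4.46 ± 0.13, edgeR adjusted p = 6.77e-13). With 1 dissected library these differences carry no test.

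Cells were also examined one by one, after thinning each to 5000 UMIs so that depth was equal, which left out 33 spinal cord B and 63 spinal cord A cells of whole replicate 2. At least 1 Sox21 UMI was then present in 25.1, 32.7 and 16.0% of spinal cord B cells, against 0.415, 1.21 and 0.587% of spinal cord A cells. In Somite A cells, which should lack the gene, it was present in 0, 0.174 and 0%. Without thinning the shares were 57.8, 51.5 and 38.4% in spinal cord B, 0.830, 1.29 and 1.83% in spinal cord A and 0.937, 0.311 and 0% in Somite A, at median depths of 17485, 9939 and 14601 UMIs, 14184, 8763 and 13867 UMIs, and 15498, 8601 and 11295 UMIs. Unthinned, the share in spinal cord A of whole replicate 1 was therefore no higher than that in Somite A.

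Nkx1-2 showed the reverse, with at least 1 UMI after thinning in 6.62, 5.72 and 14.4% of spinal cord B cells, against 25.3, 37.1 and 43.1% of spinal cord A cells and 1.11, 1.74 and 1.47% of Somite A cells. The shares in spinal cord B were above those in Somite A in each library. Without thinning they were 19.2, 10.6 and 37.3% in spinal cord B, 50.6, 50.5 and 76.9% in spinal cord A and 3.58, 2.64 and 4.41% in Somite A. Nkx1-2 was thus detected in fewer spinal cord B than spinal cord A cells at equal depth.

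NMPs C, the authors' progenitor cluster that was also present in these libraries, gives a further point of reference. On a scale computed over all 3 clusters, Fgf8 had 219.7, 131 and 324 CPM in NMPs C, and Nkx1-2 had 86.8, 104 and 116 CPM. Sox21 had 2.10, 7.29 and 0.451 CPM and Rarb 0.997, 0.754 and 0.226 CPM in NMPs C, so both were low in NMPs C as well as in spinal cord A. Mean levels in spinal cord A and NMPs C were 11.7 and 11.6 CPM for Sox1, 4.28 and 5.53 CPM for Pax6 and 16.3 and 16.6 CPM for Pax3. They were 39.9 and 37.4 CPM for Msi1 and 338 and 315 CPM for Ncam1. Other spinal cord markers had higher means in spinal cord A, such as Sox2 (195 and 163 CPM), Sox3 (46.8 and 31.7 CPM) and Irx3 (33.4 and 23.6 CPM). The level in spinal cord A lay between those of spinal cord B and NMPs C in each library for 13 of the 15 largest decreases and for 3 of the 15 largest increases. These counts are a description, since the genes were picked by their difference between the spinal cord clusters. The share over all genes tested was not computed, so the counts have no baseline and nothing is concluded from them.

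Wnt signalling works through TCF/LEF factors at target genes, many of which encode feedback regulators. Of 12 Wnt response genes tested, 8 were lower and 2 higher in spinal cord B, with a median log2 change of -0.64. Sp5, a zinc finger factor and direct Wnt target (chr2:70474923-70477729, mm10), had 0.755, 0.999 and 6.02 CPM in spinal cord B, against 20, 18.8 and 35.4 CPM in spinal cord A (log2 change -2.98 ± 0.22, edgeR adjusted p = 5.1e-08). Axin2, a negative feedback component, had 15.3, 19.6 and 13 CPM in spinal cord B, against 35.7, 43.7 and 29.2 CPM in spinal cord A (log2 change -1.18 ± 0.10, edgeR adjusted p = 3.93e-07). Neither gene overlapped between the clusters, and Notum, a secreted enzyme that inactivates Wnt ligands, had a log2 change of -2.24 ± 0.22.

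Lef1, a nuclear effector of the pathway, had a log2 change of -0.68 ± 0.09. Rspo3, a secreted enhancer of Wnt signals, had 13, 12.7 and 24.5 CPM in spinal cord B, against 97.0, 97.5 and 109 CPM in spinal cord A (log2 change -2.51 ± 0.12, edgeR adjusted p = 4.8e-10). Among the ligands, Wnt5b and Wnt5a were lower, with log2 changes of -1.52 ± 0.14 and -1.17 ± 0.13, while Wnt4, a ligand of the dorsal neural tube, was higher at 29.1, 18.1 and 49.8 CPM in spinal cord B, against 6.57, 6.02 and 13.4 CPM in spinal cord A. The Wnt response genes that were higher were Sfrp1 and Sfrp2, secreted proteins that bind Wnt ligands. Sfrp2 had 154, 146 and 167 CPM in spinal cord B, against 75.1, 85.4 and 115 CPM in spinal cord A (log2 change 0.74 ± 0.08).

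For T and Sp5, both lower in spinal cord B, the 250 bases before the RefSeq transcription start (GRCm38.p6, plus strand) hold 1 match each to the TCF/LEF motif, taken as CTTTGAT or CTTTGAA on either strand. The capitals mark it, and in T it lies on the opposite strand. Such a match occurs in 7.48% of 32851 promoter windows of this length, in 1 of the 6 matched Wnt response genes that were lower (Sp5), and in 4 of the 10 matched NMP and tail bud genes that were lower (Sp5, Sp8, T and Wnt5b).
T, chr17:8434173-8434422: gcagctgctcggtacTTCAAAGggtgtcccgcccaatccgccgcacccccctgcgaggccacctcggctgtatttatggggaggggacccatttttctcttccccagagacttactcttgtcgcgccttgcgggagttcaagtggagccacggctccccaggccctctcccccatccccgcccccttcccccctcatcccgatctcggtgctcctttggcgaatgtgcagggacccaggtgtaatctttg
Sp5, chr2:70474673-70474922: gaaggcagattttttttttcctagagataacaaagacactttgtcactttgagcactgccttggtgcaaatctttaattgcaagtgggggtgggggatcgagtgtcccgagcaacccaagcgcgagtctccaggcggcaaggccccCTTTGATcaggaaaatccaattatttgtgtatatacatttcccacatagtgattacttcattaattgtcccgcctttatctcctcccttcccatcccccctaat

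The response to FGF was less uniform. Of 15 FGF response genes tested, 4 were lower and 3 higher in spinal cord B. The lower genes were Spry4 and Il17rd, which are feedback inhibitors, and the Ets factors Etv4 and Etv5. Il17rd had 31.0, 27.3 and 49.9 CPM in spinal cord B, against 73.8, 86.6 and 90.4 CPM in spinal cord A (log2 change -1.16 ± 0.11, edgeR adjusted p = 1.55e-06). Etv4 had 17.6, 23.3 and 82.2 CPM in spinal cord B, against 40.7, 66.2 and 130.2 CPM in spinal cord A (log2 change -0.96 ± 0.12). The groups overlapped for Etv4, because the posterior spinal cord B value exceeded both whole spinal cord A values, yet spinal cord B was lower within each library.

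The higher genes of this list were receptors and a ligand, namely Fgfr1 (log2 change 0.32 ± 0.07), Fgfr2 and Fgf15. Fgf15, a ligand of the neural tube, had 0.755, 1.83 and 11 CPM in spinal cord B, against 0.626, 0.753 and 2.84 CPM in spinal cord A, with its highest level in the posterior part of either cluster (log2 change 1.86 ± 0.25). Dusp6 and Spry2, further feedback inhibitors, were not called, at -0.35 ± 0.12 and -0.31 ± 0.11. In the whole replicates Fgf15 was counted 4 and 11 times in spinal cord B, against 2 and 2 times in spinal cord A. The count of Fgfr2 carries the uncertainty given above. Without the posterior part 7 of 14 FGF response genes tested were lower and 2 higher. With DESeq2 3 of 15 were lower and 1 higher, and by edgeR without the library block 0 were lower and 1 higher.

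Retinoic acid acts through nuclear receptors that bind direct repeats in target promoters. Of 18 genes of its synthesis, breakdown, transport and response tested, 10 were higher and 5 lower in spinal cord B, with a median log2 change of 0.68. Rarb, a receptor gene that is itself a classical target, had 14.0, 18.5 and 9.65 CPM in spinal cord B, against 1.88, 2.26 and 0.954 CPM in spinal cord A (log2 change 3.21 ± 0.21, edgeR adjusted p = 1.5e-08). Crabp2, which carries retinoic acid to the nucleus, had 1136, 1306 and 1001 CPM in spinal cord B, against 455, 515 and 508 CPM in spinal cord A (log2 change 1.21 ± 0.07, edgeR adjusted p = 7.55e-09). Both genes were higher in every spinal cord B sum than in any spinal cord A sum, and Crabp1 was higher by 1.14 ± 0.12.

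The receptors themselves diverged. Rara was higher, at a log2 change of 0.59 ± 0.10, whereas Rarg, the receptor typical of the tail bud, had 8.49, 9.16 and 18.5 CPM in spinal cord B, against 38.5, 39.1 and 44.3 CPM in spinal cord A (log2 change -1.62 ± 0.15, edgeR adjusted p = 5.52e-07). Nr2f2, the second COUP-TF receptor gene, had 97.6, 119 and 43.2 CPM in spinal cord B, against 36.6, 30.5 and 13.1 CPM in spinal cord A. Meis1 and Meis2, homeodomain cofactors of Hox proteins, were higher by 1.61 ± 0.11 and 1.23 ± 0.07. Cyp26a1, the enzyme that degrades retinoic acid in the tail bud, had 4.34, 6.66 and 14.1 CPM in spinal cord B, against 8.44, 15.8 and 22.5 CPM in spinal cord A (log2 change -0.82 ± 0.14, edgeR adjusted p = 0.000748). Its groups overlapped, while spinal cord B was lower within each library.

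Stra6, a membrane receptor that takes up retinol, was lower, with a log2 change of -1.07 ± 0.13. Aldh1a2, the enzyme of the final step of retinoic acid synthesis and a somite gene in the embryo, had 17.2, 2.5 and 1.4 CPM in spinal cord B, against 1.56, 2.26 and 0.930 CPM in spinal cord A. Its call rested on whole replicate 1, since the edgeR adjusted p was 0.029 with all libraries and 0.669 without that library.

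The promoters of Rarb and Cyp26a1 are shown because these genes moved in opposite directions while both hold a match to the DR5 type of retinoic acid response element, marked in capitals. Each window is the 250 bases before the RefSeq start (GRCm38.p6, Rarb on the minus strand and Cyp26a1 on the plus strand), written in the direction of the gene, and in Cyp26a1 the match lies on the opposite strand. The element occurs in 0.0883% of all windows, and in 1 of 9 matched retinoic acid genes that were higher and 1 of 3 that were lower.
Rarb, chr14:16575477-16575726: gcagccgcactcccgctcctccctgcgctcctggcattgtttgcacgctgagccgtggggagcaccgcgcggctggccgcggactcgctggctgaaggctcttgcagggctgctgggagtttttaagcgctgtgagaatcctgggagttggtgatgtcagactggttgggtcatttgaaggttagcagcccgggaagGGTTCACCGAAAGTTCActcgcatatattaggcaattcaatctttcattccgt
Cyp26a1, chr19:37697558-37697807: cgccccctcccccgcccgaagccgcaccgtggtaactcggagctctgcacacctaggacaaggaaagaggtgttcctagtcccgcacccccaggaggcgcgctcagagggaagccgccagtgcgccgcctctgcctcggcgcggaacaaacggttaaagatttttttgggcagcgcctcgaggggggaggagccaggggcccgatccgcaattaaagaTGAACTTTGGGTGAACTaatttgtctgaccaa

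The dorsal genes were split. Of 9 dorsal neural tube and roof plate genes tested, 4 were higher and 4 lower in spinal cord B. Pax7, a paired box factor of the dorsal neural tube, had 20.2, 12.8 and 9.51 CPM in spinal cord B, against 5.00, 3.76 and 3.38 CPM in spinal cord A (log2 change 1.65 ± 0.17, edgeR adjusted p = 3.35e-06). Pax3 was higher by 1.14 ± 0.12 and Gdf10, at 2.83, 3.50 and 2.45 CPM in spinal cord B and 0.626, 0 and 0.147 CPM in spinal cord A, by 3.77 ± 0.48. Msx1, a BMP target of the dorsal midline, had 9.06, 12.5 and 22.2 CPM in spinal cord B, against 20, 32.0 and 38.7 CPM in spinal cord A (log2 change -0.98 ± 0.12), and Bmp7 had a log2 change of -0.82 ± 0.15. Of 3 ventral neural tube and floor plate genes tested, 2 were higher and Spon1 was not called. The higher genes were Ntn1, the guidance cue netrin-1, and Sulf1, a sulfatase that acts on heparan sulfate, with log2 changes of 1.40 ± 0.21 and 0.61 ± 0.10. The defining genes of the ventral floor plate, Shh and Foxa2, did not pass the filter on low counts.

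Of 7 Hedgehog pathway genes tested, 3 were higher. These, Gas1, Boc and Cdon, encode co-receptors at the cell surface. Gas1 had 343, 326 and 198 CPM in spinal cord B, against 129, 102 and 64.7 CPM in spinal cord A (log2 change 1.57 ± 0.07, edgeR adjusted p = 1.06e-10), and Boc and Cdon had log2 changes of 0.67 ± 0.11 and 1.00 ± 0.18. The target gene Ptch1 had 18.1, 29.3 and 22.8 CPM in spinal cord B and 15, 24.8 and 22.7 CPM in spinal cord A, which was not called (0.11 ± 0.11, edgeR adjusted p = 0.68). Gli2 and Gli3, the nuclear effectors, were not called either, at 0.26 ± 0.13 and -0.10 ± 0.08.

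Of 16 genes of neurogenesis and neurons tested, 3 were higher and 3 lower, and the proneural gene Neurog2 did not pass the filter on low counts. The higher genes were Cdkn1c, Elavl2 and Elavl4, and the lower genes were Dll3, Hes6 and Mnx1. With DESeq2 1 was higher and 3 were lower. Dll3, a Notch ligand of the presomitic mesoderm, had 5.10, 3.50 and 8.04 CPM in spinal cord B, against 17.5, 19.2 and 20.6 CPM in spinal cord A (log2 change -1.63 ± 0.17). Dll1, the main ligand of neurogenesis, was not called at -0.21 ± 0.15.

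Presomitic mesoderm genes were lower together with those of the tail bud. Their markers summed to 32.6, 29.3 and 58.4 CPM in spinal cord B, against 168, 212 and 244 CPM in spinal cord A, with 4 of 5 tested lower. These 4 were Rspo3 and Hes7, which made up most of the sum in spinal cord A, Dll3 and Tbx6. On the scale computed with NMPs C, each was higher still in NMPs C than in spinal cord A in every library. Their means in NMPs C were 329, 158, 33.9 and 14.1 CPM, so progenitors carried these genes as well. No presomitic cluster was measured on this scale. Whether the 4 genes tell presomitic cells from tail bud progenitors was therefore not tested. Hes7, a repressor of the segmentation clock, had 4.72, 4.33 and 19.8 CPM in spinal cord B, against 43.2, 89.2 and 108 CPM in spinal cord A (log2 change -2.92 ± 0.19, edgeR adjusted p = 1.5e-08). Tbx6, which commits cells to mesoderm, had 1.13, 0.666 and 1.68 CPM in spinal cord B, against 4.69, 3.01 and 3.4 CPM in spinal cord A.

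Of the somite genes, Tcf15 had 21.1, 33.3 and 9.02 CPM in spinal cord B, against 81.0, 50.1 and 9.20 CPM in spinal cord A. Its log2 change of -0.84 ± 0.22 (edgeR adjusted p = 0.0188) was lost without whole replicate 1 (adjusted p = 0.295). It was 0.18 (adjusted p = 0.494) without the cells that held more somite than spinal cord marker UMIs. Tcf15 is one of the somite markers by which those cells were picked, so the last value is no independent check. Meox1, another somite factor, had 34.5, 68.9 and 26.9 CPM in spinal cord B and 42.2, 33.5 and 11 CPM in spinal cord A, so that the direction in whole replicate 1 was opposite to that in the other libraries (log2 change 0.80 ± 0.19 over all).

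In the Hox clusters, the genes at the posterior end differed most. Of 29 Hox genes described here, 2 were higher and 10 lower in spinal cord B, and all 3 genes of paralog groups 10 and above that passed the filter were lower. Hoxc10 had 58.7, 9.99 and 22.0 CPM in spinal cord B, against 163, 97.1 and 88.8 CPM in spinal cord A (log2 change -2.05 ± 0.17, edgeR adjusted p = 2.16e-07). Its annotated gene model overlaps that of Hoxc5 on the same strand. Hoxa10 had 18.5, 5.99 and 9.58 CPM in spinal cord B, against 39.1, 21.8 and 22.4 CPM in spinal cord A (log2 change -1.29 ± 0.13, edgeR adjusted p = 2.96e-06). Hoxd10 was counted 4, 0 and 5 times in spinal cord B and 16, 6 and 104 times in spinal cord A (log2 change -3.04 ± 0.44).

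Hoxd genes next to this end were lower as well. Hoxd9 had 37.4, 12.3 and 36.0 CPM in spinal cord B, against 77.9, 64.7 and 105 CPM in spinal cord A (log2 change -1.56 ± 0.14, edgeR adjusted p = 3.72e-07), and Hoxd8 had a log2 change of -0.81 ± 0.14. The paralogs of Hoxd9 were not called lower. Hoxc9 had 186, 208 and 297 CPM in spinal cord B and 189, 228 and 244 CPM in spinal cord A. It was not called (0.07 ± 0.08, edgeR adjusted p = 0.698). Hoxa9 had the direction of Hoxd9 but was not called (-0.28 ± 0.10, edgeR adjusted p = 0.0831). Hoxb9 had a log2 change of 0.31 ± 0.08. The call for Hoxb9 was lost without whole replicate 2 (edgeR adjusted p = 0.479).

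At the anterior end, Hoxa2 was higher, with a log2 change of 0.57 ± 0.11. Hoxd1 went the other way at -1.15 ± 0.21, as did Hoxa3 (-0.56 ± 0.09) and Hoxb4 (-0.41 ± 0.07). Away from the anterior end, Hoxc6 (-0.39 ± 0.07) and Hoxa7 (-1.08 ± 0.09) were lower as well. The 17 Hox genes that were not called ranged from -0.32 to 0.51, so that most genes of the HoxB cluster, including Hoxb1 to Hoxb3 and Hoxb5 to Hoxb8, were not distinguishable between the clusters at this depth.

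**Figure D4:**
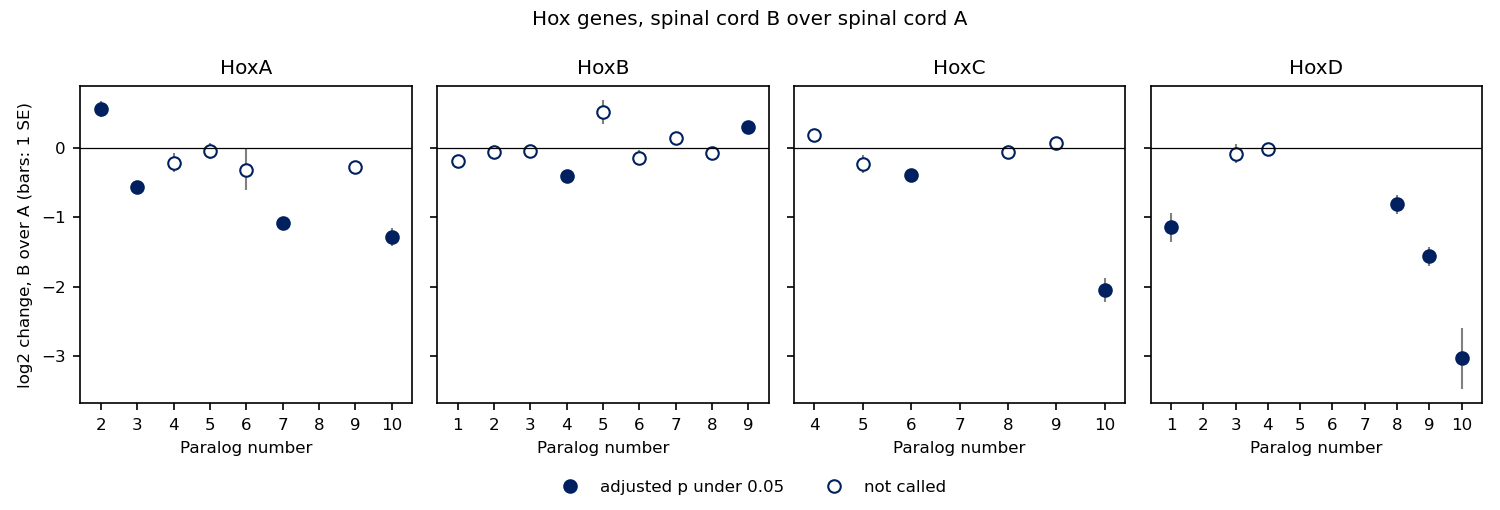
Log2 change, spinal cord B over spinal cord A, of the 29 Hox genes described, by cluster and paralog number, with 1 SE. Filled points are called (2 higher, 10 lower) and open points are not, and the points of paralog 10 lie between -1.29 and -3.04.

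Genes that time the switch between trunk and tail formed no single direction. Of 10 tested, 4 were higher and 2 lower, which became 2 and 2 when either whole replicate was left out. Lin28a, an RNA-binding protein of early progenitors, had 107, 100.0 and 124 CPM in spinal cord B, against 140.4, 216 and 191 CPM in spinal cord A (log2 change -0.70 ± 0.10, edgeR adjusted p = 5.85e-05). Its relative Lin28b was higher, at 0.46 ± 0.09, and so was Nr6a1, a nuclear receptor of trunk development, at 83.4, 105 and 84.8 CPM in spinal cord B and 44.4, 51.9 and 54.9 CPM in spinal cord A. Gdf11, a ligand that promotes the switch, had a log2 change of -0.51 ± 0.09.

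Of 22 guidance genes tested, 9 were higher and 2 lower, with a median log2 change of 0.40, and without whole replicate 1 these counts were 10 and 4. Robo2, an axon guidance receptor for Slit proteins, was counted 111, 144 and 107 times in spinal cord B, against 1, 0 and 12 times in spinal cord A (log2 change 5.07 ± 0.30, edgeR adjusted p = 5.13e-09). Epha7 had 21.5, 30.6 and 7.90 CPM in spinal cord B, against 6.26, 6.02 and 3.96 CPM in spinal cord A (log2 change 1.46 ± 0.19). Sema6a and Epha5 were the lower genes. Sema6a, a membrane-bound semaphorin, had 22.8, 25.3 and 40.8 CPM in spinal cord B, against 100.4, 107 and 80.3 CPM in spinal cord A (log2 change -1.55 ± 0.16, edgeR adjusted p = 2.43e-06).

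Of 13 cadherins and other adhesion genes tested, 6 were higher and 3 lower. Ptprz1, a receptor phosphatase of neural progenitors, had 52.5, 58.1 and 48.9 CPM in spinal cord B, against 12.5, 23.3 and 18.2 CPM in spinal cord A (log2 change 1.52 ± 0.11, edgeR adjusted p = 4.65e-08). Epcam, an adhesion molecule of epithelia, had 3.59, 5.49 and 10.9 CPM in spinal cord B, against 16.3, 13.5 and 19.3 CPM in spinal cord A (log2 change -1.12 ± 0.18). The other lower genes were Ncam1, the neural cell adhesion molecule, and Vim, an intermediate filament gene. Ncam1 had 231, 270.0 and 285 CPM in spinal cord B, against 309, 375 and 315 CPM in spinal cord A (log2 change -0.33 ± 0.07, edgeR adjusted p = 0.004), and Vim had a log2 change of -0.37 ± 0.06. Adhesion genes of neural cells thus lay on both sides.

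Cycling differed between the clusters by the authors' phase calls and by genes of the cell cycle. The phase had been scored from a list of cell cycle genes in these same cells, so these are not separate measures. The share of cells annotated as G2/M was 47.0, 41.5 and 43.9% in spinal cord B, against 22.0, 24.1 and 35.5% in spinal cord A, and spinal cord B cells had median UMI counts 1.23, 1.13 and 1.05 times those of spinal cord A. Of 22 genes of the G2 and M phases tested, 12 were higher, with a median log2 change of 0.36. This count was 4 with DESeq2, 0 by edgeR without the library block (9 at an unadjusted p under 0.05), 8 without whole replicate 1 and 18 without the posterior part. Of 22 genes of the S phase, Ung alone was called, as lower, against 5 lower without the posterior part. Top2a, a topoisomerase that peaks before mitosis, had 486, 647 and 411 CPM in spinal cord B, against 248, 399.7 and 339 CPM in spinal cord A (log2 change 0.62 ± 0.09, edgeR adjusted p = 0.000164). The difference was smaller in the posterior part than in the whole stembryos.

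To see which differences held at one phase, the sums were rebuilt from cells annotated as G1 alone. These were 11.5, 17.4 and 33.3% of spinal cord B cells and 36.9, 30.2 and 39.8% of spinal cord A cells. The sums therefore held fewer cells, and the part of this in the lower number of calls was not tested. Then 231 genes were higher and 175 lower of 7729 tested, and of the genes called over all cells 213 and 162 were called again. Top2a and Mki67 were no longer called (edgeR adjusted p = 0.0933 and 0.754), while Sox21, Pax6, Nr2f1, Fgf8, Nkx1-2, Cdx2 and Crabp2 were. Since G1 cells had been picked by the expression of cell cycle genes, the loss of such genes follows from the choice of cells and is no test. Whether phase contributes to the other genes lost in this smaller set was not tested.

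Ccnd2, a D-type cyclin, had 323, 1146 and 695 CPM in spinal cord B, against 168, 378 and 379.9 CPM in spinal cord A (log2 change 1.14 ± 0.10, edgeR adjusted p = 5.52e-07). Mycn, a Myc gene of progenitors, and Cdkn1a, a cell cycle inhibitor and p53 target, were lower, with log2 changes of -0.61 ± 0.10 and -0.87 ± 0.11. Of 20 imprinted growth genes tested, 9 were higher. The non-coding RNA Meg3 had 483, 460.5 and 497 CPM in spinal cord B, against 259.6, 241 and 272 CPM in spinal cord A (log2 change 0.90 ± 0.06, edgeR adjusted p = 1.9e-08), and Mest had a log2 change of 0.70 ± 0.08.

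The decreases of largest size also included genes without an evident place in these lists. Gm45889, a long intergenic non-coding RNA, had 2.45, 12.2 and 9.37 CPM in spinal cord B, against 41.6, 117 and 43.0 CPM in spinal cord A (log2 change -2.82 ± 0.19, edgeR adjusted p = 1.5e-08). Aopep, an aminopeptidase, and Tril, a membrane protein with leucine-rich repeats, had log2 changes of -2.23 ± 0.16 and -2.09 ± 0.12. Oat, which encodes ornithine aminotransferase and lies within the Fgfr2 gene model, had a log2 change of -1.79 ± 0.15, and Limch1 and Smim3 followed at -1.75 ± 0.12 and -1.72 ± 0.14. The groups did not overlap for any of these 6 genes, while they did not overlap for 11.0% of all genes tested. The 6 had been picked for large decreases with the same sign in all 3 libraries, so this is a description.

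Across the gene lists, 0 of the 82 cytoplasmic ribosomal protein genes tested was called by edgeR, with 52 lower and 0 higher at an unadjusted p under 0.05 and 2 called by DESeq2, and their median log2 change was -0.16. Without the posterior part 77 of these 82 were lower. Of 14 p53 target genes tested, 5 were lower, which became 2 without whole replicate 1 and 8 without the posterior part.

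**Figure D5:**
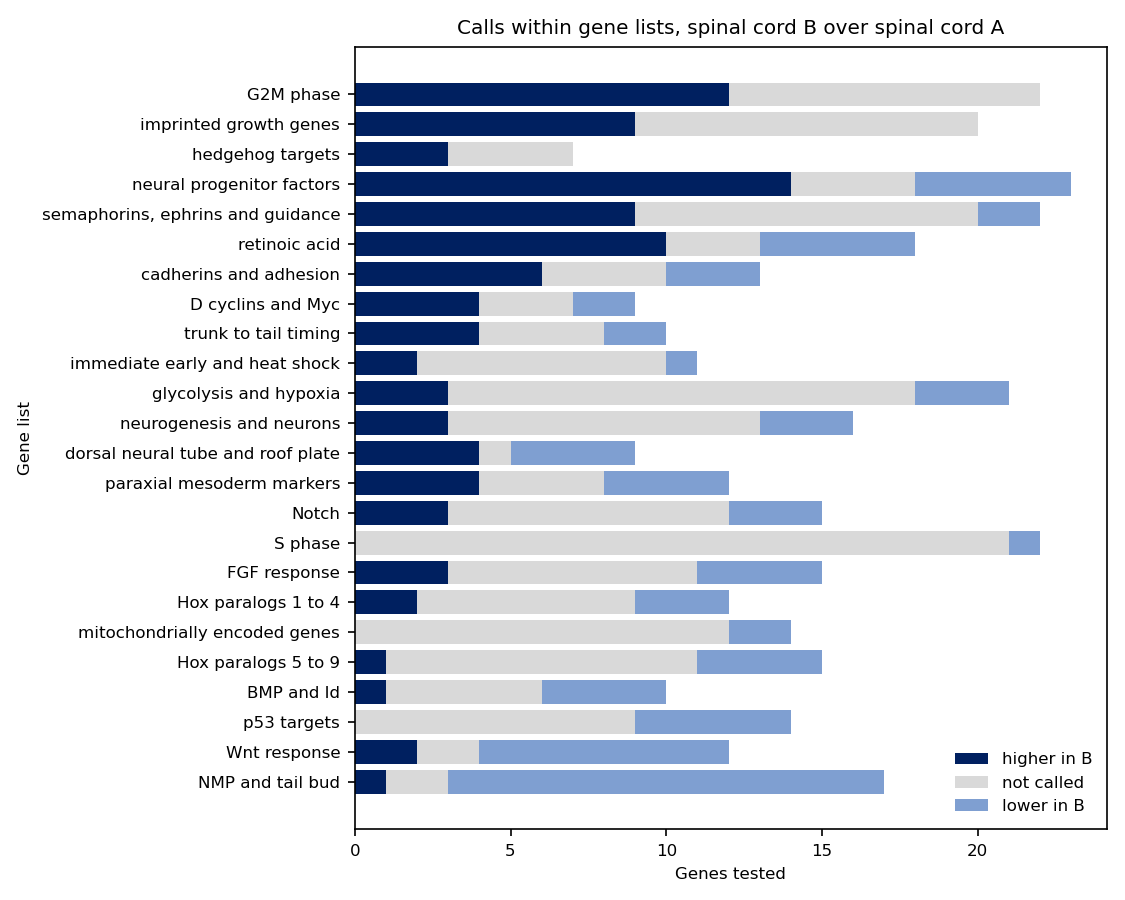
Number of genes tested in each list, split into those higher in spinal cord B (dark), not called (grey) and lower in spinal cord B (light), for lists with at least 7 tested genes apart from ribosomal proteins. The lists are ordered by the balance of calls, from the G2 and M phase genes (12 of 22 higher) to the NMP and tail bud genes (1 of 17 higher, 14 lower).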

How the data were processed

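Single-cell transcripts of 3 libraries were compared, and the anterior part and both 96 h libraries were used only for the values named as such. The authors deposited raw UMI counts per gene and cell, and an annotation with the mitochondrial percent, S and G2/M phase scores, the phase, the batch and the named cluster of each cell. According to the submitters' processing notes, Cell Ranger 6.0 and Seurat 4.0.2 had been used with mm10, and the study's methods add that cells with extreme UMI counts or mitochondrial shares had been removed, which also served against doublets, so no doublet caller was run. Every value among 25595 genes and 26968 cells was a whole number.

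Counts were summed per library and cluster. The 6 sums were compared in edgeR 4.0.16 (R 4.3.3) by its quasi-likelihood test, with TMM factors, filterByExpr, the library as a block because both clusters came from the same pool of cells, and Benjamini-Hochberg adjustment over all 11534 genes tested. SE is the log2 change divided by the square root of F. With 2 residual degrees of freedom and genes sharing a prior, precision rests on the borrowed spread. The script was tested on simulated counts. Alternatives were a fit without the block, RLE or no factors, no filter, DESeq2 1.42.0, each library left out, the anterior part added, cells up to 1.5 times the mean UMI count, and G1 cells only.

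Genes named are the 15 largest called changes in each direction with the same sign in all 3 libraries and at least 20 CPM in the higher cluster, members of gene lists, and Hox genes, of which some members are not reported here. The members and lists were chosen with earlier results of these data known. Gene positions are from the GENCODE annotation of GRCm38, which matched all but 1 of the 30 largest changes (Aopep), and promoter sequences are from RefSeq. The comparison uses the authors' clusters as given, and the phase scores were not used. The deposited tables held 0 further columns of per-sample values left unused.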

Additional observations from a re-analysis of the deposited data

Results flagged for a closer look

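Spinal cord cells were also annotated in libraries outside the comparison. The anterior part held 16 spinal cord B and 21 spinal cord A cells. Its spinal cord B cells carried 97 UMIs of Sox2, 19 of Sox21 and 43 of Irx3, among 270739 UMIs. Its spinal cord A cells carried 1 UMI of Sox2, 0 of Sox21 and 0 of Fgf8, but 65 of Meox1 and 95 of Tcf15, among 145696 UMIs, and 19 of these 21 cells held more somite than spinal cord marker UMIs. They had a median of 6622 UMIs and 5.87% mitochondrial counts, against medians of 16906 UMIs and 1.98% in the spinal cord B cells. The markers thus go against the name in 19 of these 21 cells, and the part of this in any difference there was not tested. In the anterior part, spinal cord B was higher for 60.4% of 318 genes called higher and 58.3% of 240 called lower, and 59.1% of 4728 genes that were not called, each with at least 10 UMIs there.

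At 96 h, whole replicate 1 held 0 spinal cord B and 10 spinal cord A cells among 4938, where a count of 0 allows a share of up to 0.0608%, and whole replicate 2 held 1 spinal cord B and 38 spinal cord A cells among 2649. None of these spinal cord A cells held more somite than spinal cord marker UMIs.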

How the results depend on the processing

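The direction of every gene called in both fits was the same under each alternative. Without the library block 70 genes were higher and 32 lower, all of them among the 650 and 554 called with it, and the pairing of the clusters by library therefore decides most calls. DESeq2 called 309 and 264, the fit with the anterior part added 419 and 317, and G1 cells alone 231 and 175. Leaving out one library gave 553 to 823 higher and 425 to 955 lower genes, the highest of both without the posterior part. The remaining settings gave 652 and 593 (RLE), 772 and 446 (no factors), 842 and 792 of 22944 (no filter), 658 and 568 (parts pooled) and 711 and 614 (cells up to 1.5 times the mean). Of 165 genes with alternatives, 44 kept their side of the threshold without the block and 131 with DESeq2, and 2 changed sign. These were Tcf15, at 0.18 (edgeR adjusted p = 0.494) without the cells with more somite than spinal cord marker UMIs, and Kif11, a mitotic motor, at -0.14 (adjusted p = 0.832) in G1 cells. Tcf15 is one of the markers by which those cells were picked, and G1 cells had been picked by a score of cell cycle genes. Neither sign change is independent of how the cells were chosen. The causes were not tested. Spinal cord A in the whole replicates rests on 241 and 311 cells, which limits genes of low level there.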
